A study of Mus musculus with 6 samples.

Results

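The genes described here are the 47 genes of DNA replication and nucleotide synthesis among 24012 genes in a count table of chromatin immunoprecipitation followed by sequencing (ChIP-seq). They were chosen by name. The table covers 2 marks of histone H3, the dimethylation and the trimethylation of lysine 79 (H3K79me2 and H3K79me3). The cells were hematopoietic progenitors of mouse bone marrow that carried a retrovirus for the leukemia fusion protein MLL-AF9. The fusion was either wildtype (WT) or bore the change D544R or D546R, and cells without the fusion are not among the samples. The labels give neither the age or strain of the mice nor the time after transduction. Each of the 3 genotypes was sequenced once per mark, in 6 libraries in all, so the data give no error between cultures and no test between genotypes.

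H3K79 is methylated by a single known enzyme, DOT1L, which AF9 binds, and both marks lie over the transcribed part of active genes. Before a cell copies its DNA, the origin recognition complex and its loading factors place the MCM helicase on chromatin, and further factors then switch the helicase on. Polymerase alpha makes the primers, a sliding clamp holds the main polymerases on the template, and ribonucleotide reductase and thymidylate synthase supply building blocks. Many of these genes are known targets of E2F transcription factors, which drive entry into S phase.

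Each value is a number of reads over the gene's region, which covers the transcript and 2 kb at one end. The libraries held 3558329 to 5993741 counts in H3K79me2 and 5207395 to 6652571 in H3K79me3. A normalised count is a count divided by the library's size factor, the median ratio to the other libraries of the same mark. A log2 ratio compares the normalised counts of 2 libraries after a prior count of 0.5 was added to each count. Reads that copy 1 fragment are not independent, and a count of empty short regions put the reads per independent fragment at 3.26 to 4.78 in H3K79me2. In H3K79me3 it was 9.73 in WT, 8.12 in D544R and 18.6 in D546R. The range printed after each log2 ratio is a 95% counting interval after division by these numbers, called a fragment interval here, and it covers counting error only. A gene was called higher or lower when it differed at least 2-fold, its plain counting interval did not reach 0, and its normalised counts in the 3 libraries of the mark averaged 100 or more. That mean was reached by 30 of the 47 members in H3K79me2 and by 26 of 47 in H3K79me3. Signal density is counts per kb divided by the same quantity summed over 32 genes of other tissues, so a gene with the density of those silent genes has the value 1. Meis1, a main target of MLL fusions, had 7372 H3K79me2 counts in WT, 6154 in D544R and 480 in D546R before scaling. After scaling, D544R was not below WT at the 4 fusion targets Meis1, Hoxa7, Hoxa9 and Hoxa10. Their H3K79me2 log2 ratios to WT were all above 0 in D544R, with a median of 0.40. In D546R all 4 were below 0, with a median of -2.95. Summed over 12 genes of progenitors, density was 4.26 to 5.68 in H3K79me2 and 2.01 to 2.23 in H3K79me3, and Ptprc and Runx1 held 3319 and 3396 of the 9537 H3K79me2 counts in WT. Of the 12 genes 8 had a density of at least 2 in WT in H3K79me2 and 5 in H3K79me3, while Flt3 (1.06), Csf1r (1.10) and Cd34 (1.23) lay near the silent level in H3K79me2. The same sums for T cell, B cell, erythroid and stromal genes, 5 genes each, lay between 0.68 and 1.53, and none of these genes was at 0 counts.

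RefSeq promoter sequences (build GRCm38.p6, 250 bases before to 50 after the start) matched 40 of the 47 members. No entry was found for Gins1, Gins2, Gins4, Mcm4, Pole, Prim2 and Rfc2. Because the genes are known for E2F control, the windows were searched for the words TTTGGCGC, TTTCCCGC, TTTGCCGC and TTTCGCGC on both strands. At least 1 word was present in 15 of the 40 members (37.5%) and in 704 of all 27025 genes with a promoter in that table (2.60%). The 15 were Cdc6, Cdt1, Gins3, Lig1, Mcm3, Mcm5, Mcm6, Mcm7, Orc1, Orc3, Pola1, Pold1, Pold3, Pole2 and Rfc3. The shorter word CCAAT, the box bound by NF-Y, was in 24 of the 40 (60.0%) and in 41.1% of all genes. The lines below give the 150 bases before the start, 5′ to 3′ on the gene's own strand, for 4 members called higher or lower against WT, with the E2F words in capitals. The coordinates are those of the 150 bases in GRCm38.p6, in the order Cdc6 (chr11:98908001-98908150, plus strand), Mcm6 (chr1:128359706-128359855, minus strand), Orc3 (chr4:34614943-34615092, minus strand) and Pold1 (chr7:44548816-44548965, minus strand).
Cdc6: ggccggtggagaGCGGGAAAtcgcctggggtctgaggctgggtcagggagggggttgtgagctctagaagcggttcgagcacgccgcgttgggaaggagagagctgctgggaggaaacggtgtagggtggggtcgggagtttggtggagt
Mcm6: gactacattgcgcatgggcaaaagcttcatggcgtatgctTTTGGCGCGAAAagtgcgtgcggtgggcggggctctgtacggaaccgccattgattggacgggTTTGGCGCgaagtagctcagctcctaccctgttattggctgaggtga
Orc3: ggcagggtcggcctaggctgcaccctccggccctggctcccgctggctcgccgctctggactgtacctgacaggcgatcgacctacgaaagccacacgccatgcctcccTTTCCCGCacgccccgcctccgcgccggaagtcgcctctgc
Pold1: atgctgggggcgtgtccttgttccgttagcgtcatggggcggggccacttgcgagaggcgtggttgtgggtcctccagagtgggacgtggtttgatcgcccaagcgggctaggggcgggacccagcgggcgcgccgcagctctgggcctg
Mcm6 holds 3 words, the first 2 of which overlap each other, and Cdc6 and Orc3 hold 1 each. The stretch of Pold1 before the start holds none, since its 1 word lies after the start. A match is a description of the letters and not a site shown to be bound.

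The median member carried more H3K79me2 per length than the median gene in each genotype. The members' median density was 2.05 in WT, 2.23 in D544R and 2.68 in D546R, while that of all genes was 1.12, 1.20 and 1.06. The densest members in WT were Orc6, a subunit of the origin recognition complex, at 9.17, Pcna, the sliding clamp, at 8.16, and Orc4 at 4.87. The lowest densities were those of the long genes Pola1, the catalytic subunit of polymerase alpha, at 0.89, and Pole, that of polymerase epsilon, at 0.95. In WT 25 of the 47 members (53.2%) had a density of at least 2, against 24.9% of all genes. In D546R it was 27 of 47 (57.4%), against 27.3% of all genes.

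In H3K79me3 the members' median density lay above that of all genes in WT and D544R and below it in D546R. The median was 1.35 in WT, 1.38 in D544R and 0.833 in D546R, beside 1.03, 1.01 and 0.947 for all genes. Members with a density of at least 2 numbered 13 in WT (27.7%), 9 in D544R (19.1%) and 6 in D546R (12.8%), beside 16.2%, 13.8% and 13.6% of all genes. In WT Orc6 at 5.06 and Pcna at 4.95 again stood highest, followed by Rpa3, the small subunit of the single-strand binding protein RPA, at 3.42. The origin licensing factors Cdt1 at 0.28 and Cdc6 at 0.46, and the polymerase delta subunit Pold2 at 0.47, were lowest. Across the 47 members the log2 densities of both marks in WT had a Pearson correlation of 0.64 (Spearman 0.63), and across all 24012 genes 0.50 (0.46). Both marks share the gene regions and their mappability, so this is a description only. The median region was 18.1 kb long, from 5.21 to 329 kb, and 27 of the 47 regions (57.4%) overlapped that of another gene, so part of their counts may belong to a neighbour.

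**Figure D1:**
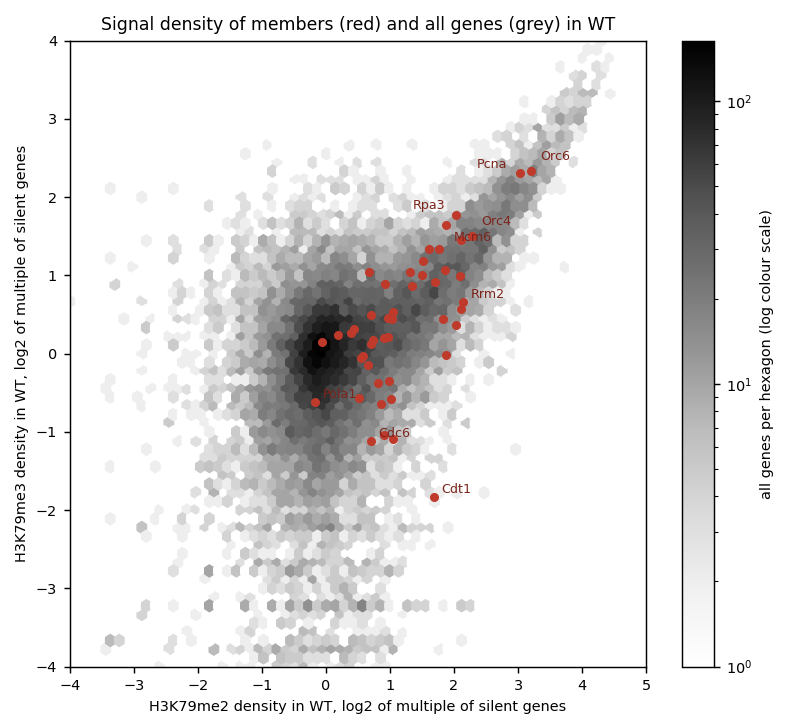
Signal density in WT, H3K79me2 on the x axis and H3K79me3 on the y axis, both as log2 of multiples of the silent genes. Red points are the 47 members and grey hexagons all genes (darker for more genes). Most members lie to the right of the densest hexagons, with Orc6 and Pcna at the upper end and Cdt1 far below the other members in H3K79me3.

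In D546R cells the median member lay slightly above WT in H3K79me2 and below WT in H3K79me3, and in D544R cells the median over all 47 lay near 0 in both marks. In H3K79me2, D546R against WT, 1 of the 30 tested members was called higher and 0 lower, while of all 8905 genes tested 0.887% were called higher and 0.865% lower. The member was Cdc6. In H3K79me3, D546R against WT, 8 of the 26 tested members (30.8%) were called lower and 0 higher, while of all 10824 genes tested 8.92% were called lower and 6.94% higher. The 8 were Pold1, Pole, Mcm6, Orc3, Tyms, Gins1, Rfc4 and Mcm3. D544R against WT gave 0 calls among members in H3K79me2, where 0.0112% of all genes were called lower and 0.0337% higher. In H3K79me3 it gave 3 lower (11.5%), Mcm6, Orc6 and Tyms, and 0 higher, beside 3.02% lower and 4.36% higher among all genes. Fewer calls were left when the fragment interval, rather than the plain one, had to lie clear of 0. In H3K79me3 4 members stayed lower in D546R against WT, Mcm6, Orc3, Pold1 and Pole, and 0 were higher, beside 5.55% and 4.26% of all genes. In D544R against WT 2 stayed lower, Mcm6 and Orc6, and 0 were higher, beside 1.66% and 2.92%. Cdc6 stayed higher in H3K79me2 in D546R against WT and 0 members were lower, beside 0.887% and 0.853% of all genes.

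A threshold of 1.5-fold in place of 2-fold added members on both sides. In H3K79me2 Pcna and Rrm2 joined Cdc6 as higher in D546R against WT, 3 of 30 beside 8.89% of all genes. Cdc6 and Rrm2 passed the minimum of 100 only through D546R. Calls lower there were 0, beside 4.26%. In D544R against WT Rfc2 was higher, 1 of 30 beside 0.853%, and 0 were lower beside 0.517%. In H3K79me3 11 of 26 were lower in D546R against WT beside 19.8% of all genes, with Mcm10, Orc5 and Rrm1 joining the 8, and Cdc45 alone was higher beside 16.8%. In D544R against WT 6 were lower beside 11.5%, with Orc5, Pcna and Pole joining the 3, and Pold3 alone was higher beside 12.5%. Pcna and Tyms passed the minimum in H3K79me3 only through WT, the library where they are high. Pold1 passed it there only through WT and D544R. In the higher direction the members' shares in these comparisons were thus near or below those of all genes, except for Rfc2, a single gene.

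Over all 47 members the median log2 ratio of D546R to WT was 0.10 in H3K79me2 and -0.39 in H3K79me3. Over those that reached the mean of 100 it was 0.26 and -0.47, and over all genes that did so 0.07 and -0.03. In H3K79me3 30 of the 47 members lay below 0, as did 12458 of all 24012 genes. D544R against WT had medians over all 47 of -0.02 in both marks. Over the members that reached the mean of 100 the D544R medians were -0.01 in H3K79me2 and -0.11 in H3K79me3, beside -0.01 and 0.00 for all such genes. In H3K79me3 19 of these 26 members lay below 0 in D544R, and 19 of 26 did so in D546R, both set against the same WT library. The 47 members together had 12063 H3K79me2 counts in WT, 8632 in D544R and 7764 in D546R, and the summed log2 ratio of D546R to WT was 0.18 (0.09 to 0.27). In H3K79me3 they had 10217, 8820 and 9624 counts, which after scaling gave -0.34 (-0.49 to -0.18) for D546R and -0.04 (-0.16 to 0.08) for D544R.

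**Figure D2:**
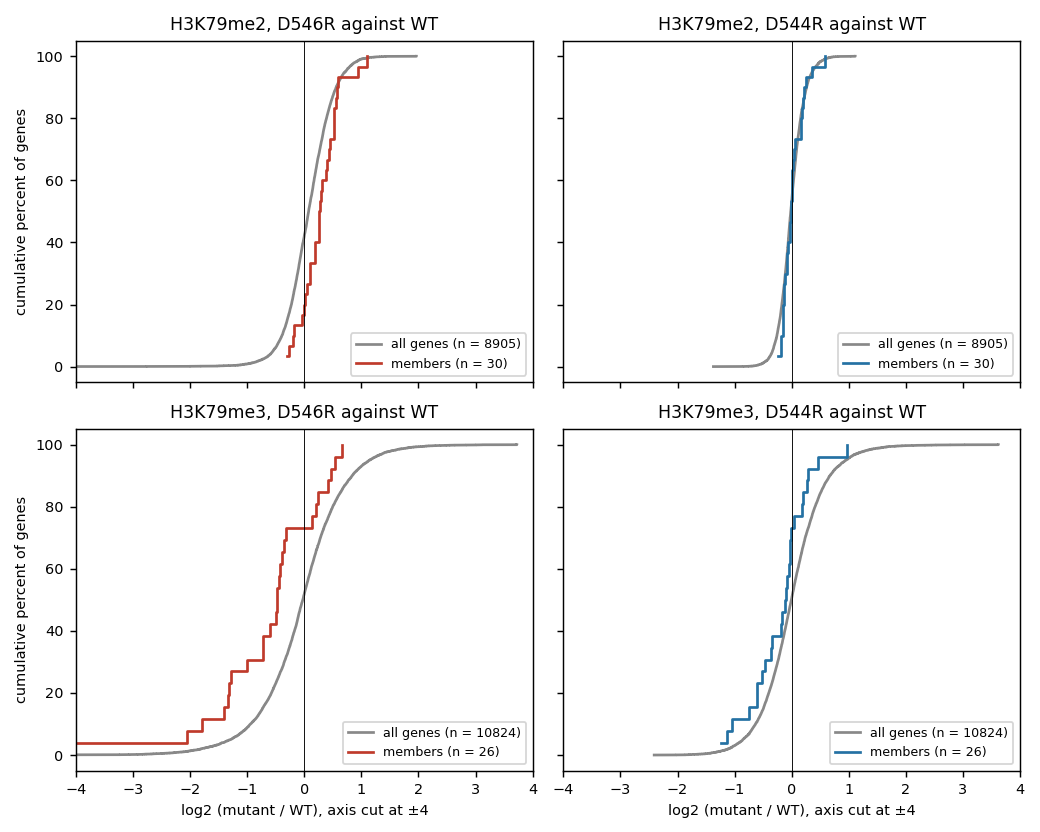
Cumulative percent of genes (y axis) up to each log2 ratio of mutant to WT (x axis), for the members with a mean of at least 100 (coloured steps) and all such genes (grey). In H3K79me3, D546R against WT, the line of the 26 members runs left of the grey line, with a median of -0.47 against -0.03, and in D544R it lies left of it by less at the median, -0.11 against 0.00. The axis ends at -4, so Pold1 at -4.40 lies off the plot.

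The D546R library of H3K79me3, on which the 8 lower calls rest, stands apart from the others. It had the most reads per fragment, 18.6, and no count in 33.5% of the regions shorter than 5 kb, against 17.6% in WT and 16.2% in D544R. In the same comparison the 32 silent genes of other tissues had a median log2 ratio of 0.97, with 24 of 32 above 0 and 4 of the 9 tested called higher. Their summed counts, the reference of the densities, had a log2 ratio of 0.16 (-0.04 to 0.35), and a higher reference lowers every density in that library. The part of this library's make-up in the members' values was not tested beyond the fragment intervals. Members were called lower both where WT H3K79me2 was dense and where it was not. Among genes with an H3K79me2 density of at least 2 in WT, 5 of 15 members (33.3%) and 12.4% of all genes were called lower in D546R. Below that density it was 3 of 11 members (27.3%) and 7.05% of all genes. The median log2 ratios were -0.48 and -0.44 for the members in these classes and -0.19 and 0.04 for all genes.

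The origin recognition complex marks the sites where replication can start, and Cdc6 and Cdt1 load the helicase there. Cdc6 (NM_011799, mm9 chr11:98767465-98785256) had 101 H3K79me2 counts in WT, 72 in D544R and 123 in D546R, or 75.0, 74.0 and 161 after scaling. WT and D544R thus lay close together and D546R stood above both, at a log2 ratio of 1.10 (0.25 to 1.96), 2.14-fold over WT. In H3K79me3 Cdc6 had 37, 51 and 76 counts, too few to be tested. Its mean in H3K79me2 was 103, just inside the minimum of 100, which it passed only through D546R, the library where it is high.

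Orc3, a subunit of the complex (NM_015824, chr4:34512030-34562191, overlapping Akirin2 and Rars2), had 427 H3K79me3 counts in WT, 297 in D544R and 191 in D546R. D546R was the lowest library, with a log2 ratio to WT of -1.41 (-2.55 to -0.41), and D544R lay between at -0.35 (-1.03 to 0.31). Its H3K79me2 was level, with 571, 380 and 328 counts and a log2 ratio of 0.02 (-0.42 to 0.44) in D546R. Orc6 (NM_019716, chr8:87821531-87832178, overlapping Vps35) had 242, 91 and 229 H3K79me3 counts. Here D544R was the low library, at -1.23 (-2.40 to -0.17), and D546R was at -0.33 (-1.45 to 0.71). Orc2 lay on the other side in both mutants with 225, 274 and 372 counts and log2 ratios of 0.46 (-0.35 to 1.29) in D544R and 0.47 (-0.47 to 1.40) in D546R, neither of them called. Orc1, Orc4 and Orc5 had H3K79me3 log2 ratios of -0.39, 0.21 and -0.73 in D546R. In H3K79me2 Orc6, at -0.18 (-0.79 to 0.40), was the lowest tested member of the licensing group, and Orc5 in D544R, at -0.24 (-0.81 to 0.32), was the lowest tested member of all. Cdt1, at 9, 1 and 34 H3K79me3 counts, had less than 2 fragments' worth of reads in each library and is not compared.

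The MCM complex of Mcm2 to Mcm7 is the helicase that unwinds the DNA. Mcm6 (NM_008567, chr1:130226168-130256233, with no overlapping gene) had 422 H3K79me3 counts in WT, 170 in D544R and 144 in D546R. Both mutants lay below WT, at log2 ratios of -1.14 (-1.97 to -0.36) in D544R and -1.80 (-3.13 to -0.68) in D546R. Mcm6 and Tyms were the members called lower in both mutants, which share the WT library. The density of Mcm6 in this mark went from 3.12 in WT to 1.35 and 0.80. Its H3K79me2 counts were 386, 322 and 261, and after scaling both mutants lay slightly above WT at 0.21 (-0.21 to 0.63) and 0.25 (-0.25 to 0.75).

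Mcm3 (NM_008563, chr1:20791095-20810294) had 171, 148 and 101 H3K79me3 counts. D546R was called lower at 2.01-fold, on the edge of the rule, with a log2 ratio of -1.01 (-2.72 to 0.44), and D544R was level with WT at -0.04. In H3K79me2 Mcm3 had 286, 207 and 134 counts and, at -0.27 (-0.96 to 0.37), the lowest D546R ratio of the tested helicase genes. Mcm2 was the highest of them, at 0.52 (-0.37 to 1.39). Its mean of 101 passed the minimum only through D546R, the library where it is high, so its place among the tested genes depends on that. Mcm5 had 237, 147 and 376 H3K79me3 counts and no call, at -0.52 (-1.48 to 0.42) in D544R and 0.41 (-0.51 to 1.33) in D546R. Of the 3 tested subunits, Mcm3, Mcm5 and Mcm6, only Mcm6 was thus called lower in D544R. Mcm3 was level with WT there, and the interval of Mcm5 spanned 0. In D546R Mcm5 lay above 0 with an interval that spans it. Mcm4, with 81, 82 and 26 H3K79me3 counts, had too low a mean to be tested. So had Mcm2, with 61, 72 and 90, and Mcm7, with 41, 36 and 71. In D546R the log2 ratio of Mcm4 was -1.87, while those of Mcm2 and Mcm7 were 0.31 and 0.53. The D544R ratios of Mcm2, Mcm4 and Mcm7 were 0.41, 0.19 and -0.01.

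Cdc45 and the GINS complex of Gins1 to Gins4 join MCM to make the active helicase, and Mcm10 helps to start it. Gins1 (NM_027014, chr2:150733330-150757016) had 220 H3K79me3 counts in WT, 152 in D544R and 105 in D546R. It was called lower in D546R at -1.31, although its fragment interval of -2.96 to 0.05 just reached 0. Cdc45 had 164, 149 and 307 counts and the highest H3K79me3 ratio of the tested members in D546R, 0.65 (-0.42 to 1.72), which was not a call. Mcm10 was at -0.73 (-2.53 to 0.81). In H3K79me2 only Cdc45 of this group reached the mean of 100, and its log2 ratio in D546R was 0.28 (-0.45 to 0.99).

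Pcna is the ring that keeps polymerases on DNA, and replication factor C (Rfc1 to Rfc5) loads it. Rfc4 (NM_145480, chr16:23112021-23127803, overlapping Eif4a2) had 129 H3K79me3 counts in WT, 139 in D544R and 63 in D546R. D546R alone was low, at -1.28 (-3.56 to 0.50), and D544R was at 0.28 (-0.84 to 1.43). Rfc4 had 140, 104 and 82 H3K79me2 counts and log2 ratios of 0.05 or less in size in both mutants. Pcna (5.9 kb long, overlapping Tmem230) had 168, 136 and 143 H3K79me2 counts, giving 0.59 (-0.14 to 1.30) in D546R, and its density there reached 12.2, the highest of any member. In H3K79me3 it had 131, 69 and 121 counts, and both mutants lay below WT without a call, at -0.75 in D544R and -0.37 in D546R. Rfc2 had 124, 135 and 103 H3K79me2 counts, and 0.59 (-0.12 to 1.32) was the highest D544R ratio among tested members. Rfc1, the large subunit, was near level in both mutants in H3K79me2 and at -0.47 (-1.11 to 0.14) in H3K79me3 in D546R.

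Polymerase alpha (Pola1, Pola2) and primase (Prim1, Prim2) make the primers. Pola1 and Prim2 are the longest members, at 329 and 218 kb, and so have the narrowest intervals. Pola1 had 1026, 707 and 724 H3K79me2 counts and 968, 1041 and 1271 H3K79me3 counts. Its log2 ratios in D546R were 0.32 in H3K79me2 and 0.14 (-0.32 to 0.60) in H3K79me3. Prim2 had 1377, 1180 and 1213 H3K79me3 counts, a smaller loss of -0.43 (-0.88 to -0.00) that was not a call. Its H3K79me2 ratio was -0.04 (-0.34 to 0.25).

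Polymerases delta (Pold1 to Pold3) and epsilon (Pole, Pole2) copy the bulk of the genome, and here the largest H3K79me3 losses stood. Pold1, the catalytic subunit of delta (NM_011131, chr7:51786114-51804185, overlapping Mir7053, Nr1h2 and Spib), had 150 counts in WT, 125 in D544R and 8 in D546R. WT and D544R were close together, and D546R had fewer reads than the 18.6 that make up 1 fragment in that library. The log2 ratio was -4.40 (-16.13 to -0.88). The mean of Pold1 was 101, just inside the minimum. It passed only through WT and D544R together, the libraries where it is high, so its calls depend on that. Its H3K79me2 counts of 119, 78 and 48 gave -0.48 (-1.69 to 0.58), at a mean below 100.

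Pole, the catalytic subunit of epsilon (NM_011132, chr5:110713338-110766472, overlapping Pxmp2), had 265, 154 and 75 H3K79me3 counts. The libraries were ordered WT, D544R, D546R, with log2 ratios of -0.61 (-1.54 to 0.29) and -2.07 (-4.04 to -0.56). In H3K79me2 Pole had 177, 117 and 150 counts, and D546R was the high library at 0.58 (-0.13 to 1.27). Its partner Pole2 did not share the H3K79me3 loss, with 174, 111 and 301 counts and 0.54 (-0.53 to 1.59) in D546R. Pold3 had 213, 370 and 187 counts and was highest in D544R, at 0.97 (0.20 to 1.78), just short of the 2-fold needed for a call. Pold2 was listed at 0 counts in D546R, with 17 in WT and 37 in D544R. At a floor of 3 counts it was at least 6.74-fold lower than WT after scaling, but 17 counts are less than 2 fragments' worth of reads in the WT library.

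RPA (Rpa1 to Rpa3) coats single-stranded DNA, Fen1 and Lig1 trim and join Okazaki fragments, and Chaf1a and Chaf1b place new histones behind the fork. Of these 7 genes, Rpa1, Lig1 and Chaf1a reached the mean of 100, each in both marks, and were not called in either mutant. Rpa2, Rpa3, Fen1 and Chaf1b did not reach it in either mark and could not be called. Rpa2 had 76, 30 and 84 H3K79me3 counts and Rpa3 had 80, 34 and 52. Their log2 ratios in D544R were -1.15 (-3.45 to 0.79) and -1.05 (-3.19 to 0.80). Fen1 and Chaf1b lay on the other side in D544R, at 0.42 and 0.53. Over all 47 members 25 lay below 0 and 22 above 0 in that comparison. Rpa1 had 452, 392 and 381 H3K79me3 counts and was at -0.50 (-1.32 to 0.28) in D546R. Lig1 had 152, 120 and 213 H3K79me3 counts, at 0.23 in D546R, while its H3K79me2 ratio of -0.30 (-1.20 to 0.52) was the lowest of the tested members in D546R. Chaf1a was at 0.37 (-0.10 to 0.83) in H3K79me2 and -0.48 (-1.90 to 0.81) in H3K79me3.

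Ribonucleotide reductase (Rrm1, Rrm2) makes deoxynucleotides, thymidylate synthase (Tyms) and thymidine kinase (Tk1) make thymidine monophosphate, and Dut removes dUTP. Rrm2, the subunit that is made in S phase (NM_009104, chr12:25391119-25399011), had 122, 90 and 132 H3K79me2 counts, or 90.6, 92.6 and 173 after scaling. D546R stood above both others at 0.93 (0.13 to 1.73), 1.91-fold and not a call. Rrm2 and Cdc6 have the same shape in this mark, with WT and D544R level and D546R high. Like Cdc6, Rrm2 passed the minimum of 100, at a mean of 119, only through D546R, the library where it is high. Tyms (NM_021288, chr5:30382740-30400165) had 161, 69 and 75 H3K79me3 counts, and both mutants lay below WT at -1.04 (-2.44 to 0.22) and -1.35 (-3.38 to 0.27). Its mean in H3K79me3 was 102, and it passed the minimum only through WT, the library where it is high, so both calls depend on that. Its H3K79me2 counts were 151, 124 and 113, at 0.19 and 0.40 after scaling. Rrm1 was at -0.60 (-1.59 to 0.32) in H3K79me3, and Tk1, at -0.20 (-1.15 to 0.68), had the lowest H3K79me2 ratio of the group in D546R. Dut, at 0.35 (-0.21 to 0.92), was second to Rfc2 among tested members in H3K79me2 in D544R.

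**Figure D3:**
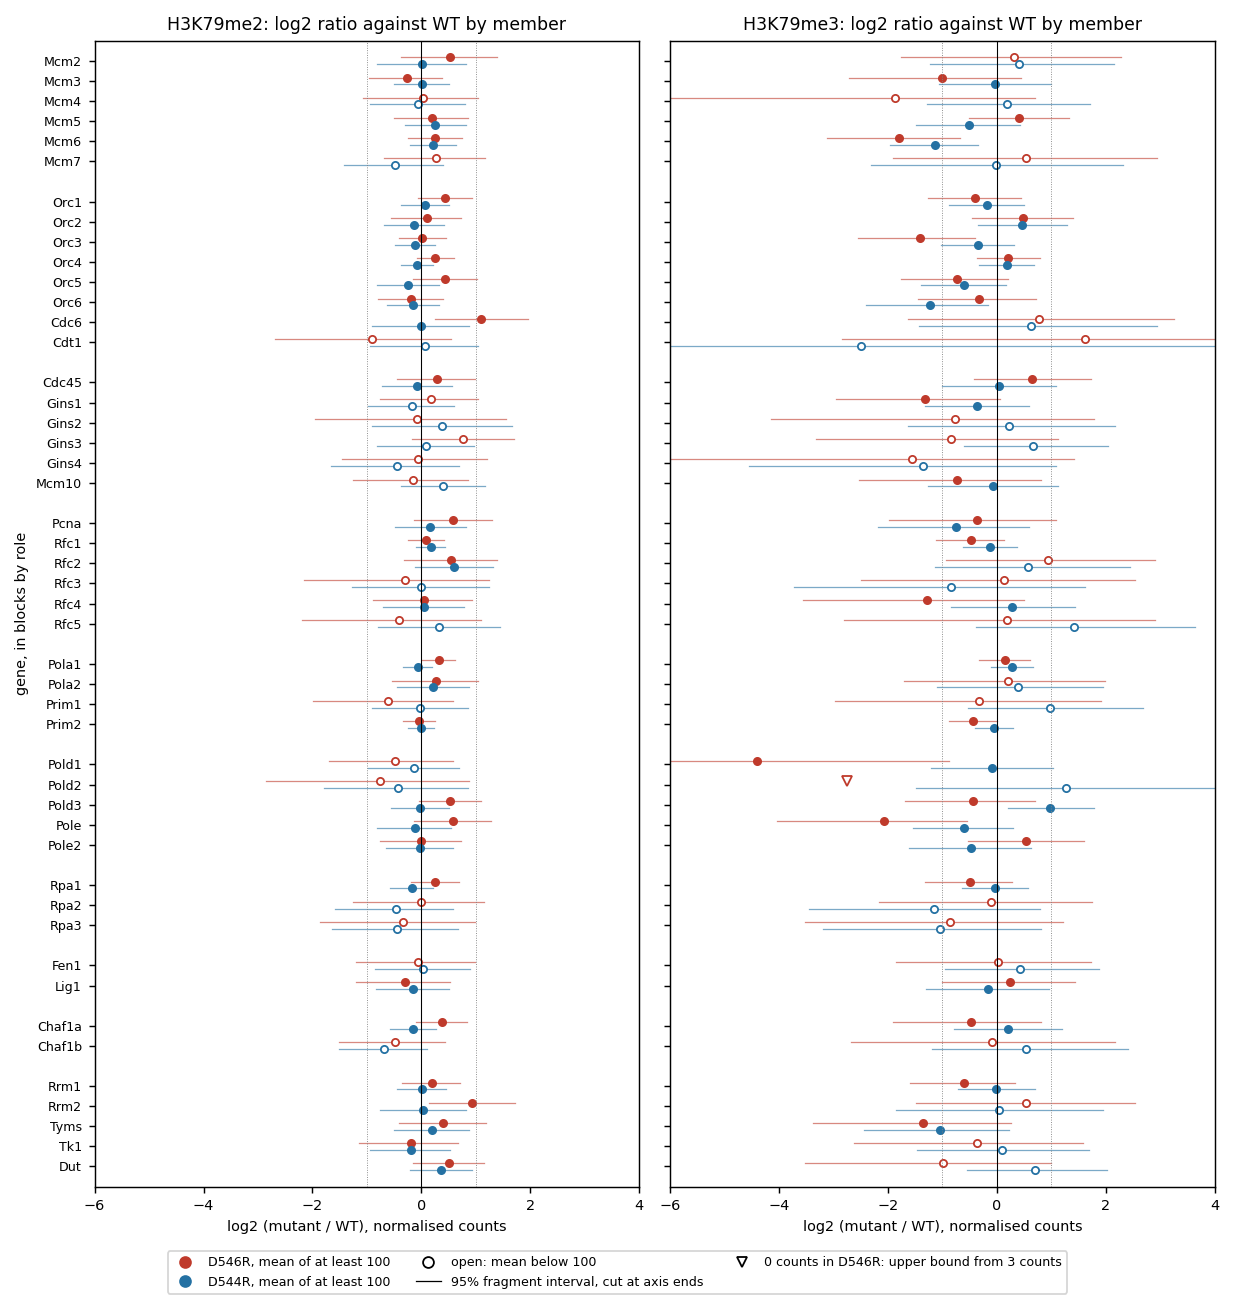
Log2 ratio of mutant to WT (x axis) for each of the 47 members in blocks by role (y axis), H3K79me2 left and H3K79me3 right, D546R red and D544R blue. Bars are 95% fragment intervals (counting error only) and end at the axis, open points have a mean below 100, and Pold2 in D546R is drawn at its bound. Pold1, Pole, Mcm6 and Orc3 lie far left in red on the right panel and near or right of 0 on the left panel, except Pold1 at -0.48.

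**Figure D4:**
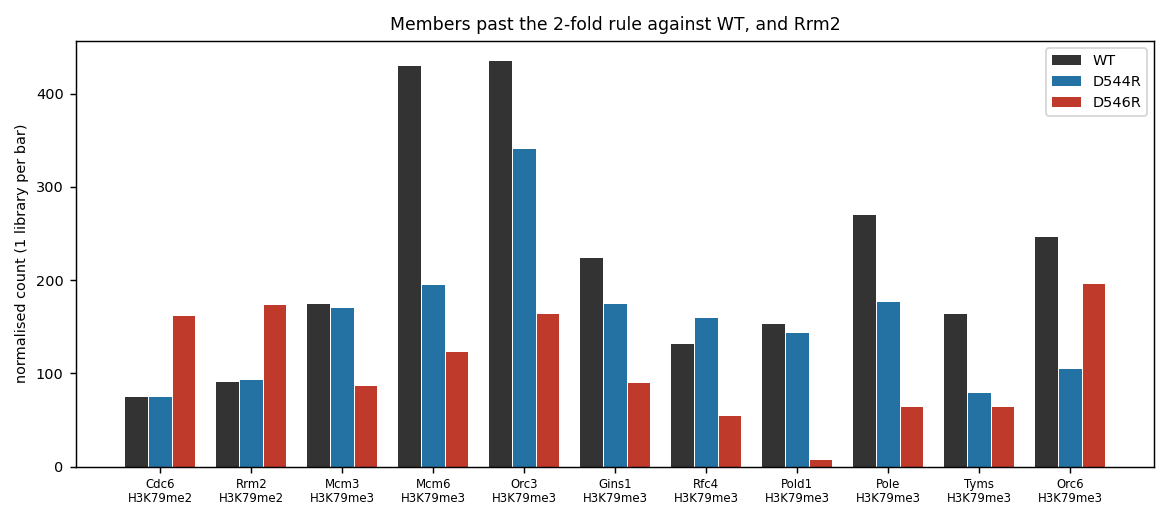
Normalised counts (y axis, from 0) in WT, D544R and D546R, 1 library per bar, for the members called against WT and for Rrm2. Cdc6 and Rrm2 stand highest in D546R in H3K79me2, and the 8 members called lower in H3K79me3 stand lowest in D546R, with Pold1 at 8 counts before scaling. Orc6 is lowest in D544R.

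D546R was also set directly against D544R. In H3K79me2 Cdc6 was called higher in D546R than in D544R, 1 of 30 members beside 0.775% of all genes, and 0 were lower beside 0.876%. In H3K79me3 5 of 26 members were lower in D546R, Pold1, Rfc4, Pole, Pold3 and Orc3, beside 8.31% of all genes. Rfc4 passed the minimum mean only through D544R, the library where it is high, and Pold1 only through WT and D544R. Their calls here depend on that. Pole2, at 2.02-fold and 1.01 (-0.12 to 2.17), was the 1 member called higher, beside 5.77%. With fragment intervals Pold1 at -4.31 (-16.04 to -0.79), Pold3 at -1.41 (-2.56 to -0.40) and Orc3 at -1.06 (-2.22 to -0.03) stayed lower and 0 were higher, beside 5.16% and 3.77% of all genes. At 1.5-fold 10 of 26 were lower beside 19.0% of all genes and 4 higher, Cdc45, Mcm5, Orc6 and Pole2, beside 15.3%. In H3K79me2 at 1.5-fold 4 of 30 were higher, Cdc6, Orc5, Pole and Rrm2, beside 8.02%, and 0 lower beside 4.47%. For Pold3 the difference rests on the high D544R library.

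In D546R the members' ratios differed between the marks. Among the 23 members with a mean of at least 100 in both, 13 (56.5%) lay above 0 in H3K79me2 and below 0 in H3K79me3 in D546R against WT, beside 29.8% of 8411 such genes. The H3K79me3 log2 ratio was below the H3K79me2 ratio in 18 of the 23, with a median difference of -0.75, while all genes had -0.12. In D544R the median difference was -0.05, and that of all genes was 0.00. There 15 of the 23 members had the lower ratio in H3K79me3, as did 4193 of the 8411 genes, and 8 members (34.8%) lay above 0 in H3K79me2 and below 0 in H3K79me3, beside 23.4% of genes. Across the 23 members the D546R ratios of the 2 marks had a Pearson correlation of -0.20 (Spearman -0.17), and across the 8411 genes 0.13 (0.06). The points share their WT and D546R cultures and were scaled separately for each mark, so these are descriptions.

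**Figure D5:**
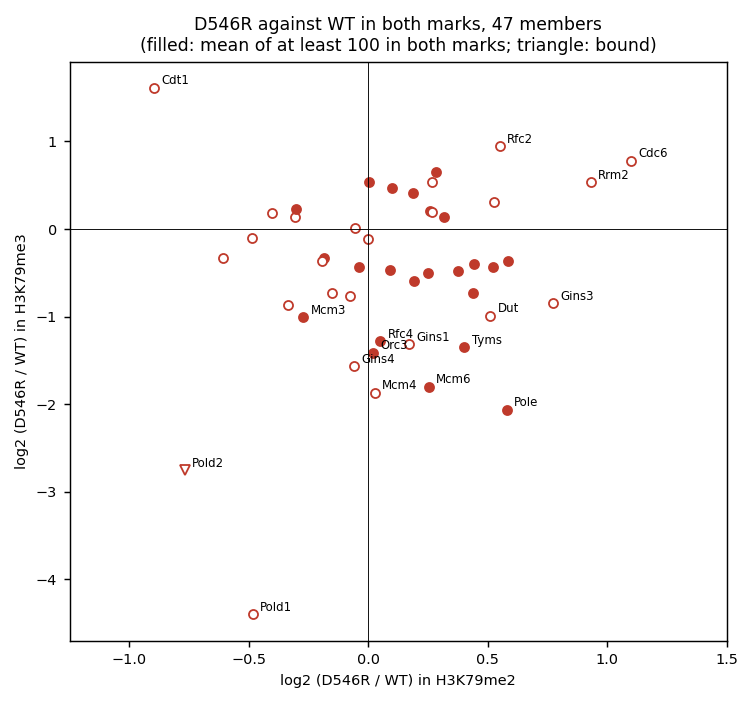
Log2 ratio of D546R to WT in H3K79me2 (x axis) and H3K79me3 (y axis) for each of the 47 members. Filled points have a mean of at least 100 in both marks, and the triangle is Pold2 at its bound. Pole, Mcm6 and Tyms lie right of 0 and more than 1 unit below it, and Cdc6 and Rrm2 lie at the right end above 0.

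Members with an E2F word were set beside those without. In H3K79me3, D546R against WT, the 10 tested members with a word had a median log2 ratio of -0.42 and 4 calls lower, among them Mcm6, Orc3 and Pold1, whose letters are shown above. The 13 tested members without a word had -0.48 and 2 calls lower, and Gins1 and Pole, both called lower, had no promoter entry. Of all genes tested in H3K79me3, D546R against WT, 8.92% were called lower, and their median was -0.03. In H3K79me2 the medians were 0.22 with a word and 0.27 without, beside 0.07 for all genes. In D544R against WT they were -0.18 and -0.03 in H3K79me3 and -0.02 and 0.00 in H3K79me2. In D546R against D544R they were -0.43 and -0.30 in H3K79me3 and 0.09 and 0.23 in H3K79me2.

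The other genes of the pathway are read against the same 8.92% of all genes lower and 6.94% higher in H3K79me3. Of 38 other replication factors 27 reached the mean of 100 in that mark, and D546R against WT gave 1 lower, Dna2, a nuclease, at -2.36 (-5.37 to -0.36), and 1 higher, Cdca7 at 1.10 (-0.50 to 2.78). Their median was -0.32. Of 33 other nucleotide synthesis genes 22 were tested, with 2 lower and 0 higher and a median of 0.07. The 2 were Atic, of purine synthesis, with 299, 117 and 72 counts and -2.30 (-4.31 to -0.78), and Adss at -1.24 (-1.99 to -0.54). Prps2 was the highest of that list, at 0.99 (-0.29 to 2.30). The other replication factors thus lay between the members' median of -0.47 and that of all genes, -0.03.

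Mitosis genes, read in the same cells as genes of a later cell cycle phase, had 2 calls lower and 2 higher among 26 tested, with a median of 0.15. The condensin subunit Smc4 had 1967, 1198 and 655 H3K79me3 counts, at -1.84 (-2.40 to -1.32), and Bub3 was at -1.04. The centromere histone Cenpa had 41, 123 and 168 counts, at 1.77 (-0.03 to 3.88), and Cenpf was at 1.03. Among 11 tested E2F and RB family genes, E2f8, a repressor of the family, was called lower with 201, 76 and 52 counts and -2.19 (-4.71 to -0.41). Rbl2 at 1.38 (0.39 to 2.42) and E2f7 at 1.00 (-0.28 to 2.32) were called higher, and the median was -0.16.

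In H3K79me2 the medians of these lists were also above 0 in D546R. They were 0.20 for the other replication factors, 0.22 for nucleotide synthesis, 0.38 for mitosis and 0.40 for E2F and RB genes, beside 0.26 for the members. E2f2, an activator of the family, was the 1 gene called, with 135, 142 and 166 counts and 1.11 (0.39 to 1.85). The lists had 26, 24, 27 and 11 tested genes in the same order. Of all genes tested 0.887% were called higher and 0.865% lower. The lowest and highest of each list were Mcm8 at -0.33 and Gmnn at 0.54, Prps2 at -0.45 and Adsl at 0.83, Ndc80 at -0.44 and Bub1 at 0.86, and Tfdp2 at -0.58. In D544R against WT the H3K79me3 calls stood beside 3.02% lower and 4.36% higher among all genes. Of the 27 tested other replication factors Asf1b was lower and Mcm8 higher, and of the 22 nucleotide synthesis genes Atic and Dck were lower. Of the 26 mitosis genes Cenpa was higher, and of the 11 E2F and RB genes E2f8 was lower. Atic and E2f8 were thus lower, and Cenpa higher, in both mutants, which share the WT library. In H3K79me3 E2f8 passed the minimum mean only through WT, the library where it is high. Cenpa passed it only through the mutant libraries, where it is high, so the calls of both genes depend on that.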

How the data were processed

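The data are 1 H3K79me2 and 1 H3K79me3 ChIP-seq library for each of WT, D544R and D546R. The authors deposited whole-number counts of reads for each gene without normalization, and per the file headers a gene's region runs from 2 kb upstream of the start to the transcript end. The submitters' processing notes name mm9 as the build and DESeq, bedtools and Bowtie as tools. The step each tool served, with its version, was not given in the sources used here, nor is the handling of duplicate reads. Of 3761 neighbouring gene pairs on opposite strands, 3659 (97.3%) had the same offset from RefSeq (within 50 bases) and 0 an offset shifted by 2 kb. The 2 kb therefore lie at the lower-coordinate end on both strands, which is past the transcript end for 26 of the 40 members whose strand was matched.

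Size factors were medians of ratios per mark over 23029 (H3K79me2) and 20863 (H3K79me3) genes, scaled to a geometric mean of 1. Counting intervals were exact conditional binomial (Clopper-Pearson) intervals. Reads per fragment came from 4591 autosomal regions shorter than 5 kb, read as empty by chance, so regions that cannot be reached raise the estimate. Calculations used Python 3.11.15, numpy 2.4.6, pandas 2.3.3 and scipy 1.17.1, and edgeR 4.0.16 only for TMM factors as an alternative. The script was checked on simulated data. Named genes were those called (at most 8 per mark and mutant), the 3 lowest and 3 highest tested members, the lowest and highest per role and list in D546R, and the 3 densest in WT, and any other gene named was chosen after its values were seen. The members and lists were chosen with earlier results of these data known.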

Additional observations from a re-analysis of the deposited data

How the results depend on the processing

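No paired analysis was possible because each group has 1 library and the groups share only 1 replicate number. Leaving out a replicate was not possible for the same reason. Of 150 alternative values for the calls and medians of members, 116 stayed within 1.5 times the count or moved the median by less than the counting error of the members' summed ratio. The 1 median whose sign changed was that of H3K79me2, D544R against WT, which is near 0. Scaling by pairs of libraries alone was chosen after seeing the data and is among the 150 values.

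In H3K79me2, D546R against WT, the median of 0.26 became 0.10 with no filter and 0.36 without members in overlapping regions, and the 1 call higher became 0 at a mean of 300 and 3 at 1.5-fold. D544R against WT had a median of -0.0098, which became 0.0038 by total counts, 0.075 with silent genes as the reference and 0.019 without overlapping regions, and 1 call higher at 1.5-fold. D546R against D544R had 0 higher at a mean of 300 and 4 at 1.5-fold, and its median of 0.20 became 0.34 at a mean of 300.

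In H3K79me3, D546R against WT, the median of -0.47 became -0.63 with silent genes and -0.73 without overlapping regions. The 8 calls lower became 1 at a mean of 300, 4 with fragment intervals and 4 of 9 without overlapping regions, and calls higher became 1 with no filter and 1 at 1.5-fold. D544R against WT had 7 lower and 2 higher with no filter, 0 lower at a mean of 300, and 6 lower and 1 higher at 1.5-fold. D546R against D544R had 3 lower by total counts, 11 with no filter, 1 at a mean of 300, 10 at 1.5-fold, 3 with fragment intervals and 1 without overlapping regions, where the median was -0.66. Its calls higher were 0 with silent genes, 3 with no filter, 0 at a mean of 300, 4 at 1.5-fold, 0 with fragment intervals and 0 without overlapping regions. With no filter 47 members were tested in each mark. At a mean of 300 it was 9 in H3K79me2 and 8 in H3K79me3, and without overlapping regions 12 and 9. Shares of all genes at these settings are not given here, so these counts are not read as results about the members. By total counts 25 members were tested in H3K79me3, and 774 of all 10829 genes were lower in D546R against D544R. A higher minimum tests fewer genes, and other causes were not tested.

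Silent genes as the reference shifted the median of all genes by -0.16 in H3K79me3, D546R against WT, and turned 965 lower and 751 higher genes into 1318 and 500. Total counts gave 100 lower and 59 higher genes in H3K79me2, D546R against WT, in place of 77 and 79. In D546R against D544R silent genes gave 115 and 37 in place of 78 and 69 in H3K79me2, and 1094 and 487 in place of 899 and 625 in H3K79me3. In D544R against WT they gave 418 and 381 in place of 327 and 472 in H3K79me3.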
